A study of Mus musculus with 16 samples.

Results

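The genes whose mRNA level differed in 1 direction in all 4 dendritic cell (DC) progenitor populations after exposure to a γ-secretase inhibitor (GSI) were examined. For each gene the vehicle value was subtracted from the GSI value within genotype, cell type and replicate number, and the 8 differences were averaged. Genes were taken as members when the difference had the same sign in WT and IkL/L monocyte and dendritic progenitors (MDPs) and in WT and IkL/L common dendritic progenitors (CDPs). Of 19938 genes, 5797 were members. Among all genes, 17.1% were higher with GSI in all 4 populations (3411 genes) and 12% were lower in all 4 (2386 genes), while the averaged difference was above 0 for 57.3% and below 0 for 42.7%. The larger number of higher members depended on the scaling, since 2501 genes were higher and 3021 lower in all 4 populations after each array was centred on its median. Among genes with a mean log2 signal of at least 5, the numbers were 1703 higher and 1744 lower.

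GSI-treated cultures received Compound E at 5 µM, and control cultures received its solvent, DMSO. The populations were WT MDPs, WT CDPs, IkL/L MDPs and IkL/L CDPs, each with 2 GSI arrays and 2 DMSO arrays. IkL/L is a hypomorphic allele of *Ikzf1*, so that the mutant progenitors make the Ikaros transcription factor at a reduced level, and they are not null for it. All progenitors carried CD45.2, were sorted from bone marrow, were grown for 24 h with Flt3L-containing medium alongside CD45.1+ WT bone marrow cells, and were sorted again by CD45.2 before RNA was prepared. The comparison asks what GSI did to progenitors regardless of Ikaros status and stage.

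γ-Secretase is a protease of the membrane that cuts the stubs of many single-pass membrane proteins after their outer part has been shed. Notch receptors are its best known substrates, and the released Notch fragment acts in the nucleus. MDPs give rise to monocytes and to CDPs, and CDPs give rise to conventional and plasmacytoid DCs in the presence of Flt3L.

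Array medians were between 4.52 and 4.65 on the log2 scale, and replicate arrays of a group correlated at 0.983 to 0.996 across genes. The mean log2 level of the 28 DC progenitor genes was 7.52 to 8.75 in the GSI arrays and 7.73 to 8.86 in the DMSO arrays. The means of B cell genes (4.47 to 4.83 with GSI, 4.47 to 4.77 with DMSO) and of T and NK cell genes (4.25 to 4.50 with GSI, 4.23 to 4.51 with DMSO) lay near the array medians. A single array stood apart from its number-matched partner. The Y-linked *Eif2s3y* had a log2 signal of 3.33 in IkL/L MDP GSI replicate 2 and 7.04 in IkL/L MDP DMSO replicate 2, while in each other population both arrays of a number were high or both were low. Without that GSI array, 4 genes passed the averaged test as higher and 1 as lower.

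With GSI, 44 genes rose and 17 fell on average over the 4 populations (limma without pairing of arrays, two-sided, Benjamini-Hochberg adjusted p under 0.05), which is 0.221% and 0.0853% of all genes. The labels do not pair the arrays. In a limma fit with the 8 number-matched pairs as a block, 370 genes were higher and 470 lower at that threshold. Calls, and statements that a list gave no call, refer to the unpaired fit. Of the 44 risen genes, 43 were higher in every population, and of the 17 fallen genes, 16 were lower in every population. Called genes just inside the direction rule were *Zc2hc1a* (IkL/L MDPs −0.00) and *Cyp1b1* (WT CDPs 0.05). The exceptions, just outside it, were *Upp1*, a uridine phosphorylase gene (averaged difference 0.25, WT CDPs −0.04), and *Tagap*, which encodes a GTPase-activating protein (averaged difference −0.46, WT CDPs 0.12). All 8 number-matched differences had the same sign for 38 of the risen and 13 of the fallen genes, against 2.7% and 2.89% of all genes. Most shifts were small. Only 6 of the risen and 4 of the fallen genes differed more than 2-fold, and 31 and 12 differed less than 1.5-fold. The GSI arrays and the DMSO arrays did not overlap within any population for 34 of the risen and 12 of the fallen genes, against 0.607% and 0.572% of all genes. The genes were called on the average of these same differences. Their counts by direction, sign and overlap therefore follow in part from the calls and are not separate support. In these bulk samples, fewer cells of a type and less RNA per cell cannot be told apart.

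The number of calls rested on single arrays. Without 1 array at a time, the risen and fallen genes numbered 25 and 5 (WT MDP GSI replicate 1), 40 and 45 (WT MDP GSI replicate 2), 6 and 2 (WT MDP DMSO replicate 1) and 29 and 6 (WT MDP DMSO replicate 2). They numbered 54 and 31, 36 and 21, 32 and 13, and 45 and 29 without WT CDP GSI replicates 1 and 2 and DMSO replicates 1 and 2, in that order. In IkL/L MDPs, in the same order, they numbered 4 and 1, 4 and 1, 12 and 5, and 36 and 11. In IkL/L CDPs they numbered 40 and 18, 6 and 4, 7 and 1, and 0 and 0. None of the 61 calls was therefore kept without IkL/L CDP DMSO replicate 2, while *Casp6*, *Hfe*, *Rbpms* and *Selenos* were called without any 1 of the other 15 arrays. All 61 averaged differences kept their sign in each of these fits. Centring each array on its median gave 5 risen and 5 fallen genes.

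**Figure D1:**
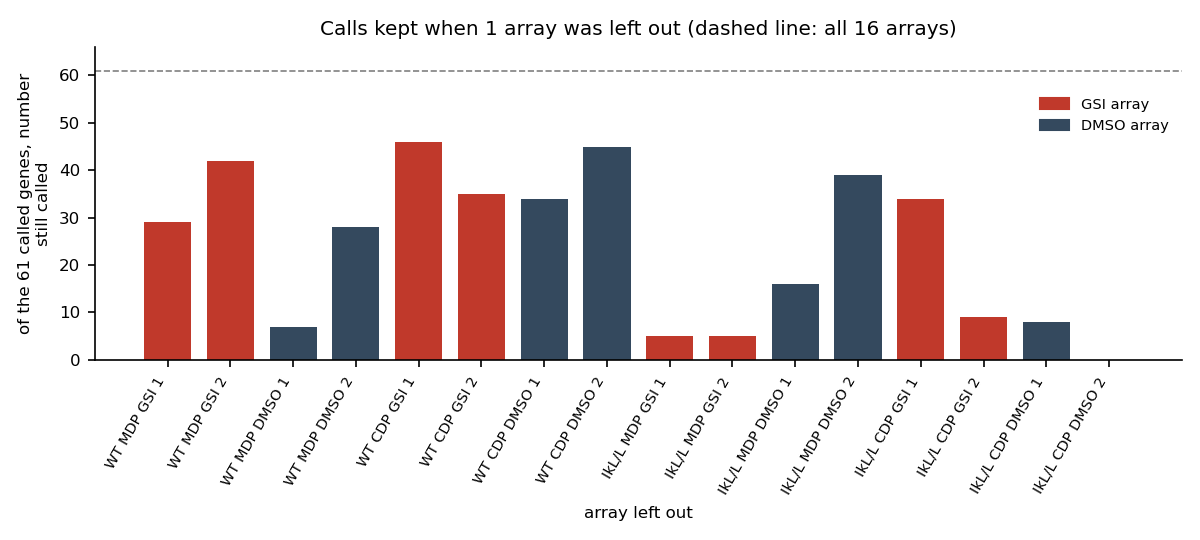
Number of the 61 genes past the adjusted threshold that were still past it (y axis) when the array named on the x axis was left out, with GSI arrays in red, DMSO arrays in blue and a dashed line at 61. The count was 0 without IkL/L CDP DMSO replicate 2 and 46 without WT CDP GSI replicate 1.

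The largest fall was in *Hpgd*, which encodes the enzyme that inactivates prostaglandins. Its log2 signal in WT MDPs was 4.79 and 5.67 with GSI and 6.75 and 6.87 with DMSO, and in WT CDPs it was 6.92 and 6.93 with GSI and 9.65 and 8.53 with DMSO. In IkL/L MDPs it was 7.63 and 6.64 with GSI and 9.19 and 8.01 with DMSO, and in IkL/L CDPs it was 6.99 and 5.81 with GSI and 9.52 and 9.39 with DMSO. Both GSI arrays were below both DMSO arrays in every population. The averaged difference was −2.07 on the log2 scale (SE 0.27, adjusted p = 0.0199), or 4.19-fold lower with GSI. The fall measured 3.06 in IkL/L CDPs and 1.46 in IkL/L MDPs. Its call was kept without each of 10 of the 16 arrays, with an adjusted p of up to 0.0703.

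*Axl* encodes a receptor tyrosine kinase that binds Gas6 and is itself cut by γ-secretase. Its log2 signal was lowest at 5.12, 6.02 at the median and 7.02 at the highest in the 8 GSI arrays, and 6.60, 7.39 and 8.43 in the 8 DMSO arrays. The ranges overlapped across populations, but within each population both GSI arrays lay below both DMSO arrays. *Axl* fell by 1.42 on the log2 scale (SE 0.22, adjusted p = 0.0363), or 2.68-fold, and was called without each of 4 arrays (adjusted p up to 0.118). Its sister receptors and their ligands, a group put together after the values had been seen, had 1 called member of 5: *Mertk* (0.01), *Tyro3* (0.01), *Gas6* (0.08) and *Pros1* (0.23) did not pass. The median signal of the 5 genes was 3.94, below the array medians of 4.52 to 4.65, while *Axl* averaged 6.74. Most of the other members thus had a low signal, and their values do not show that the fall was particular to *Axl*.

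*Cx3cr1*, the fractalkine receptor gene by which MDPs are commonly recognized, had log2 signals of 7.25 to 8.61 in GSI arrays (median 8.05) and 8.77 to 9.81 in DMSO arrays (median 9.43). All 8 GSI arrays were below all 8 DMSO arrays. It fell by 1.34 on the log2 scale (SE 0.17, adjusted p = 0.0199), or 2.52-fold, with 10 of 16 calls kept when 1 array was left out (adjusted p up to 0.0703). *Rbpms*, which encodes an RNA-binding protein, was at 5.99 to 7.52 in GSI arrays (median 6.99) and 7.92 to 8.63 in DMSO arrays (median 8.04). Again no GSI array reached the lowest DMSO array. The averaged difference of *Rbpms* was −1.24 (SE 0.13, adjusted p = 0.00907), and its highest adjusted p with 1 array left out was 0.0538. *Cx3cr1* and *Rbpms* were the only genes among the 17 fallen ones with no overlap over all 16 arrays.

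The remaining fallen genes moved by less. Apart from *Tagap* and a small nucleolar RNA gene, they were *Trim34a* of the interferon-inducible tripartite motif family (−0.60), the ketohexokinase gene *Khk* (−0.56), *Fam107b* (−0.54), the interleukin-17 receptor gene *Il17ra* (−0.44), the sterol 27-hydroxylase gene *Cyp27a1* (−0.41), *Zfp770* (−0.35), the leucine catabolism gene *Ivd* (−0.33), *Zfp229* (−0.32), the transcription factor gene *Rfx3* (−0.32), *Zc2hc1a* (−0.32) and the kinase gene *Csnk1g3* (−0.30), with adjusted p values of 0.0206 to 0.0491. *Khk* had nearly equal differences of −0.56, −0.60, −0.54 and −0.57 in WT MDPs, WT CDPs, IkL/L MDPs and IkL/L CDPs. *Zc2hc1a* had differences of −0.42, −0.46, −0.00 and −0.38 in the same order. *Zfp229* had a mean signal below the array medians.

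**Figure D2:**
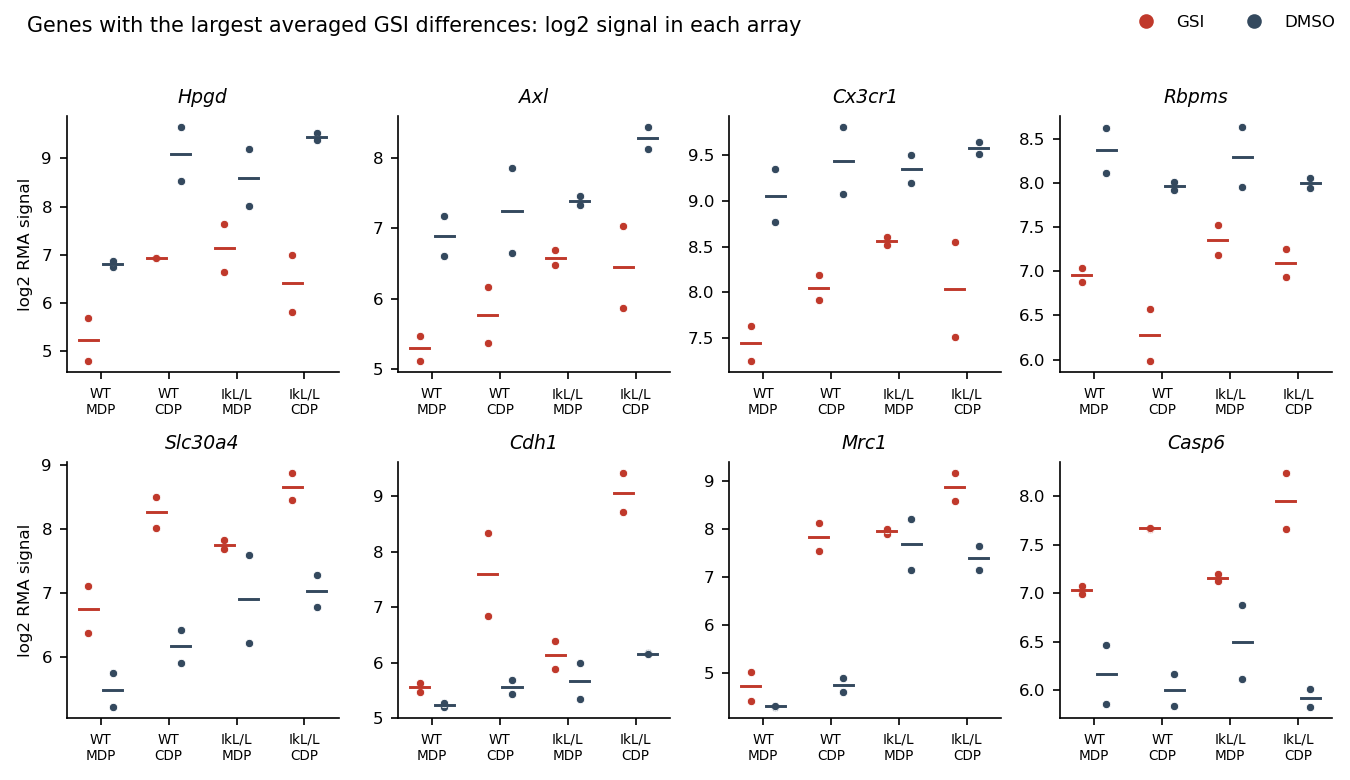
Log2 RMA signal (y axis) in each of the 16 arrays for the genes with the largest averaged differences, by population (x axis), with GSI arrays in red left of DMSO arrays in blue and a line at each mean. The GSI values of *Hpgd*, *Axl*, *Cx3cr1* and *Rbpms* lie below the DMSO values of the same population, and those of *Casp6* lie above.

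Of the risen genes, *Slc30a4*, which encodes a zinc transporter of intracellular vesicles, rose most. Its log2 signal was 6.38 to 8.87 in GSI arrays (median 7.93) and 5.22 to 7.59 in DMSO arrays (median 6.32). The difference was positive in WT MDPs (1.25), WT CDPs (2.10), IkL/L MDPs (0.85) and IkL/L CDPs (1.63). On average it was 1.46 (SE 0.21, adjusted p = 0.0268, up to 0.111 with 1 array left out), or 2.75-fold.

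*Casp6*, which encodes a protease of the caspase family, had no overlap between treatments. It was at 6.99 to 8.24 in GSI arrays (median 7.43) and at 5.83 to 6.87 in DMSO arrays (median 6.07). The averaged difference was 1.31 (SE 0.13, adjusted p = 0.00907), and it was larger in WT and IkL/L CDPs (1.67 and 2.03) than in WT and IkL/L MDPs (0.87 and 0.67). The CDP effect minus the MDP effect was 1.08 (SE 0.27) and did not pass the adjusted threshold over all genes. *Ier3*, an immediate early response gene, was at 7.97 to 9.52 with GSI (median 8.82) and 6.82 to 8.50 with DMSO (median 7.45). Its averaged difference was 1.27 (SE 0.19, adjusted p = 0.0338), between 0.93 in IkL/L MDPs and 1.47 in WT MDPs. *Casp6* kept its call without 15 of the 16 arrays and *Ier3* without 6 (adjusted p up to 0.118).

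*Cdh1* and *Mrc1* rose on average, but their differences lay mostly in CDPs. *Cdh1* encodes E-cadherin, an adhesion molecule and γ-secretase substrate, and its differences were 2.03 in WT CDPs and 2.90 in IkL/L CDPs, and 0.31 and 0.46 in WT and IkL/L MDPs. The average was 1.43 (SE 0.21, adjusted p = 0.0268, up to 0.111 with 1 array left out). *Mrc1* encodes the macrophage mannose receptor, and its differences were 3.09 and 1.48 in WT and IkL/L CDPs and 0.42 and 0.27 in WT and IkL/L MDPs, with an average of 1.32 (SE 0.18, adjusted p = 0.0209, up to 0.0884). The difference in GSI effect between CDPs and MDPs was 2.08 for *Cdh1* and 1.94 for *Mrc1* (SE 0.35), and neither passed the adjusted threshold over all genes.

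Among the other named rises, *Eps8*, an actin regulator gene, rose by 1.09 (SE 0.18, adjusted p = 0.0440) and *Lifr*, the leukemia inhibitory factor receptor gene, by 0.80 (adjusted p = 0.0491). *Nxpe5* (0.80) had GSI values of 5.74 to 6.52 and DMSO values of 4.85 to 5.51, with no overlap over all 16 arrays. *Hfe*, which encodes an MHC class I-like protein that limits iron uptake, rose by 0.68 (SE 0.07, adjusted p = 0.00907). The kynureninase gene *Kynu* (0.69), *Igfbp6* (0.58), which encodes an insulin-like growth factor binding protein, and the phospholipase gene *Pla2g12a* (0.57) also passed. *Kynu* had its smallest difference in IkL/L CDPs (0.12) and its largest in WT MDPs (1.25). With 1 array left out, the highest adjusted p was 0.151 for *Lifr*, 0.146 for *Kynu*, 0.142 for *Eps8* and 0.0538 for *Hfe*.

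Many of the risen genes serve protein entry into the endoplasmic reticulum (ER) and export from it. Proteins bound for the membrane or for secretion pass through the translocon, lose their signal peptide to signal peptidase, receive N-glycans from oligosaccharyltransferase, form disulfide bonds with the help of disulfide isomerases and leave in COPII vesicles. Such genes were gathered in 8 groups after the calls had been seen, and their counts are a description only. The groups held 98 measured genes, of which 15 rose and 0 fell by the limma test, against 0.221% and 0.0853% of all genes. At an unadjusted p under 0.05, 61 were higher and 2 lower, against 6.01% and 5.42% of all genes. The averaged difference was positive for 89 of the 98, with a median of 0.22, against 0.01 over all genes. The median was above 0 in each population for each of the 8 groups.

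Among all genes, 0.221% rose. In the translocon-associated TRAP complex, 3 of 4 subunit genes rose: *Ssr1* (0.29), *Ssr2* (0.36) and *Ssr3* (0.34). *Ssr4* had a difference of 0.16 and did not pass. Of 12 oligosaccharyltransferase genes, the catalytic subunit genes *Stt3a* (0.33) and *Stt3b* (0.37) and the subunit genes *Ddost* (0.40) and *Ostc* (0.44) rose, with adjusted p values of 0.0199 to 0.0288. *Rpn1* (0.39) and *Rpn2* (0.37) did not pass (adjusted p = 0.115 and 0.0630), and *Tusc3*, which encodes an alternative subunit, had a negative difference (−0.24, adjusted p = 0.302). The mean log2 level of the 12 genes was 9.50 to 9.70 in GSI arrays (median 9.59) and 9.19 to 9.50 in DMSO arrays (median 9.33). These 2 ranges met only at their ends.

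Of 5 signal peptidase genes, *Spcs2* (0.36) and *Spcs3* (0.28) rose, against 0.221% of all genes. *Spcs3* was at 11.04 to 11.32 in GSI arrays and 10.68 to 11.04 in DMSO arrays, and every GSI array was above every DMSO array before rounding. None of the 14 translocon and signal recognition particle genes passed in limma. At an unadjusted p under 0.05, 9 were higher, against 6.01% of all genes. The channel subunit gene *Sec61a1* had a difference of 0.43 (adjusted p = 0.0755).

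Folding and quality control genes gave further calls. Of 18 disulfide isomerase genes, *Pdia5* (0.87, adjusted p = 0.0491) and *P4hb* (0.37, adjusted p = 0.0338) rose, against 0.221% of all genes. *Selenos*, whose product takes part in the removal of misfolded ER proteins, was at 9.35 to 9.48 in GSI arrays (median 9.41) and 8.88 to 9.18 in DMSO arrays (median 8.95). No arrays overlapped, and the difference of 0.41 (SE 0.04, adjusted p = 0.00907) was 0.30 to 0.48 in the 4 populations. The UFM1-specific protease gene *Ufsp2* rose by 0.31 (adjusted p = 0.0218), without overlap. In the vesicle coats, the COPII cargo adaptor gene *Sec24d* rose by 0.63 (SE 0.09, adjusted p = 0.0231) and the COPI subunit gene *Cope* by 0.51 (adjusted p = 0.0206). *Slc35b1*, whose product carries nucleotides across the ER membrane, rose by 0.60 (adjusted p = 0.0440), and the ER membrane protein genes *Lrrc59* (0.49) and *Tmem214* (0.51) also rose.

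**Figure D3:**
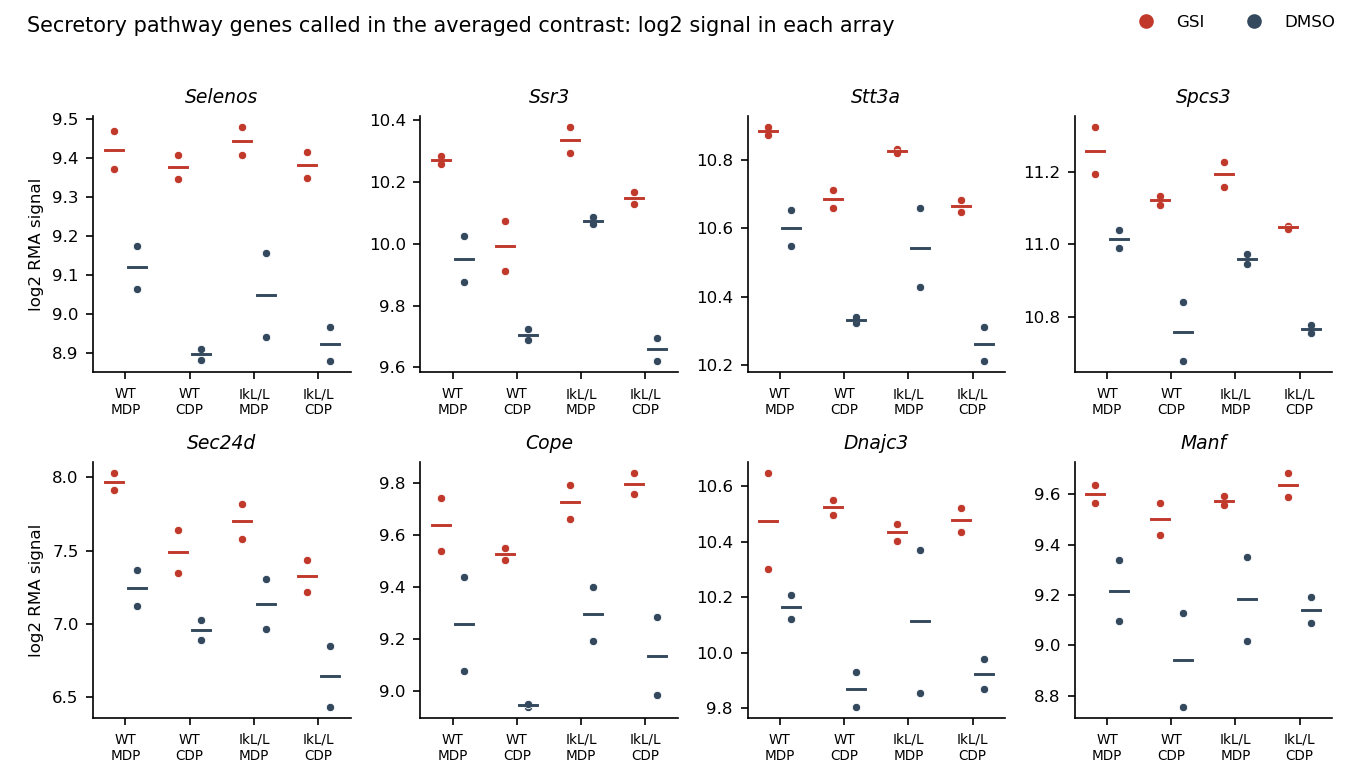
Log2 RMA signal (y axis) in each of the 16 arrays for genes of the ER and secretory pathway that rose, by population (x axis), with GSI arrays in red left of DMSO arrays in blue and a line at each mean. For *Selenos* the GSI arrays lie between 9.35 and 9.48 and the DMSO arrays between 8.88 and 9.18.

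The unfolded protein response is the set of genes that cells induce when unfolded proteins build up in the ER, through the transcription factors XBP1, ATF6 and ATF4. Of 26 measured genes of that response, *Dnajc3* (0.46, adjusted p = 0.0466) and *Manf* (0.46, adjusted p = 0.0342) rose and 0 fell by limma. At an unadjusted p under 0.05, 20 were higher and 0 lower, against 6.01% and 5.42% of all genes. The differences were positive in all 4 populations for 23 of the 26, against 17.1% of all genes. Their median was 0.31 in WT MDPs, 0.33 in WT CDPs, 0.27 in IkL/L MDPs and 0.33 in IkL/L CDPs. *Manf*, which encodes a secreted ER protein, was at 9.44 to 9.68 with GSI and 8.76 to 9.35 with DMSO, with no overlap. The chaperone genes *Hspa5* (0.39, adjusted p = 0.222), *Hyou1* (0.73, adjusted p = 0.161) and *Sdf2l1* (0.60, adjusted p = 0.109) did not pass, and *Xbp1* itself had a difference of 0.14.

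The mean log2 level of the 26 genes was 8.94 to 9.26 in GSI arrays (median 9.10) and 8.61 to 8.97 in DMSO arrays (median 8.79). Of 22 ATF4 target genes, *Chac1*, which encodes a glutathione-degrading enzyme, rose by 0.39 (SE 0.05, adjusted p = 0.0218) and 0 fell. At an unadjusted p under 0.05, 12 were higher and 1 lower, against 6.01% and 5.42% of all genes. The asparagine synthetase gene *Asns* (1.12, adjusted p = 0.0630) and *Atf4* itself (0.50, adjusted p = 0.0878) did not pass. The median of the ATF4 targets was 0.24, and it was 0.15 in IkL/L MDPs and 0.34 in WT MDPs.

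Factors of the unfolded protein response bind short, well-defined elements close to gene starts. Promoter sequences are shown for 4 of the risen genes that held a match to such an element. The risen *Rab3il1* and the fallen *Trim34a* also held a match and are not shown. RefSeq windows of 250 bases before the gene start (GRCm38.p6) were found for 49 of the 61 called genes, 37 higher and 12 lower. Capitals mark the element, which is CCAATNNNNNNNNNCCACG (the ER stress element) in *Dnajc3*, TGACGTGG (the core of the XBP1 and ATF6 element) in *Sec24d* and *Lrrc59*, and TGATGNAA (the ATF4 element) on the opposite strand in *Chac1*.
Dnajc3 (chr14:118937682-118937931, + strand, element 105 bases before the start): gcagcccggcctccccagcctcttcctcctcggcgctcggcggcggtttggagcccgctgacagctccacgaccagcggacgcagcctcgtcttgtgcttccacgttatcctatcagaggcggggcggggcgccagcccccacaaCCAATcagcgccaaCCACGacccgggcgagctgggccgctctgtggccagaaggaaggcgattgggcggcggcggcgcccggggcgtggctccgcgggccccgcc
Sec24d (chr3:123267246-123267495, + strand, element 26 bases before the start): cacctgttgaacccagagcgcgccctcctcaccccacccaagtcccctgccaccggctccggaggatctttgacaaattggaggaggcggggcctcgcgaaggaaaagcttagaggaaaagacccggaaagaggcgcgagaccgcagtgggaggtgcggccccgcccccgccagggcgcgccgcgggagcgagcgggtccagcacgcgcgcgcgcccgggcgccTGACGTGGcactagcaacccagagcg
Lrrc59 (chr11:94629527-94629776, + strand, element 15 bases before the start): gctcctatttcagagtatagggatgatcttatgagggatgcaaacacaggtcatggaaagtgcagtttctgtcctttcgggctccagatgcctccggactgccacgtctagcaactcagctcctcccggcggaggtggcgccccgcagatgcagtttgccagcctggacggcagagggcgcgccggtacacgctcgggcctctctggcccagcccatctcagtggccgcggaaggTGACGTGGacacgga
Chac1 (chr2:119350992-119351241, + strand, element 193 bases before the start): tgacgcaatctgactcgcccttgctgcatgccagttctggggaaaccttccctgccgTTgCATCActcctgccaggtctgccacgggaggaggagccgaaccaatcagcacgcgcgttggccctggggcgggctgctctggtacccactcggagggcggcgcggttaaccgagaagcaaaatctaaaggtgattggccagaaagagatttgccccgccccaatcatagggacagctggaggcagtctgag

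Both strands were searched. A gene was counted if any of its windows held the element. The ER stress element was in 0.13% of all 27025 genes with a window and in 1 of the 37 risen genes (*Dnajc3*). It was in 10 of the 22 matched genes of the unfolded protein response, among them *Hspa5* and *Calr*. The element TGACGTGG was in 0.603% of all genes with a window, in 2 of the 37 risen genes (*Sec24d* and *Lrrc59*) and in 0 of the 22. TGATGNAA was in 3.91% of all genes with a window and in 2 of the 37 risen genes (*Chac1* and *Rab3il1*). It was in 1 of the 12 fallen genes (*Trim34a*) and in 4 of 18 matched ATF4 targets. No called TRAP, oligosaccharyltransferase or signal peptidase gene with a window held any of the 3 elements. A match is a description of letters, not a site or a cause.

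Of the 41 gene lists, which cover pathways, cell markers and sex-linked genes, 32 held no called gene. Interferon-stimulated genes mostly had lower averages with GSI but gave no call. Of 27, 0 passed in limma, 17 were lower and 0 higher at an unadjusted p under 0.05, and 26 had a negative averaged difference (median −0.34, against 0.01 over all genes). Over all genes, 5.42% were lower at that unadjusted p and 42.7% had a negative difference. In all 4 populations 17 of the 27 were lower and 1 higher, against 12% and 17.1% of all genes. The median was −0.29 in WT MDPs, −0.60 in WT CDPs, −0.10 in IkL/L MDPs and −0.29 in IkL/L CDPs. *Irgm1*, which encodes an interferon-induced GTPase, had the smallest adjusted p (−0.44, adjusted p = 0.0784). *Ifit3*, which encodes an antiviral protein, had differences of −2.43 in WT CDPs and −0.43 in IkL/L MDPs (average −1.21, adjusted p = 0.177). Over all 27 genes the mean level was 5.49 to 7.45 in GSI arrays (median 5.84) and 5.68 to 7.61 in DMSO arrays (median 6.28), ranges that pool populations of different baseline.

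Of 28 DC progenitor genes, only *Cx3cr1* passed. The median averaged difference was −0.24, and 15 of the 28 were lower in all 4 populations and 3 higher, against 12% and 17.1% of all genes. Without WT CDP DMSO replicate 2 the median was −0.14. *Cd34*, a stem and progenitor cell surface gene, had differences of −0.95, −0.81, −0.92 and −0.86 in WT MDPs, WT CDPs, IkL/L MDPs and IkL/L CDPs (adjusted p = 0.0751). *Irf8*, which encodes a transcription factor of DC and monocyte development, averaged −0.66 (adjusted p = 0.0632), and *Kit*, the stem cell factor receptor gene, −0.65 (adjusted p = 0.504). *Flt3* (−0.26) and *Csf1r* (−0.22), the receptor genes that define these progenitors, did not pass. The part of a changed cell composition in these values was not tested. Neutrophil genes averaged lower for 22 of 23, against 42.7% of all genes (median −0.19, 0 called by limma). At an unadjusted p under 0.05, 0 were higher and 1 lower, against 6.01% and 5.42% of all genes. Their mean levels were 6.97 to 9.24 in GSI arrays and 7.22 to 9.24 in DMSO arrays. *Mpo*, *Elane*, *Prtn3* and *Ctsg* were in both the neutrophil and the DC progenitor list, so these lists are not independent. The neutrophil median was −0.31 and −0.12 without WT CDP GSI replicates 1 and 2, and −0.35 and −0.10 without IkL/L CDP GSI replicates 1 and 2. Of 26 monocyte and macrophage genes, only *Mrc1* passed.

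Other lineage and signalling lists held members that ran in 1 direction in every population without passing the test. The basophil and eosinophil genes *Prg2* (−1.33, adjusted p = 0.234) and *Mcpt8* (−1.24, adjusted p = 0.199) were lower in all 4. Of the 17 genes of that list, 12 had a negative average (median −0.07), against 42.7% of all genes. The mean level of the list was 4.22 to 5.32 in GSI arrays and 4.53 to 5.60 in DMSO arrays. Its median signal of 4.11 was below the array medians, so most members had a low signal. *Apoe*, which encodes a lipid carrier, averaged −1.53 (adjusted p = 0.233), between −2.33 in WT MDPs and −0.72 in IkL/L CDPs. Of 30 conventional DC genes 0 passed in limma (median −0.01), *Clec9a* averaging −1.08 (adjusted p = 0.127). Unadjusted, 5 were higher and 7 lower, against 6.01% and 5.42% of all genes. The plasmacytoid DC genes likewise gave 0 calls of 23 (0 higher and 4 lower unadjusted, median −0.11), with *Siglech* at −0.52. *Tcf4*, the gene of the main plasmacytoid DC transcription factor, averaged 0.02, with 0.43 and 0.41 in WT and IkL/L CDPs and −0.37 and −0.39 in WT and IkL/L MDPs. *Id2*, which encodes its inhibitor, averaged −0.35 (adjusted p = 0.516).

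Of 19 genes for TGFβ receptors and SMADs, 0 passed in limma (smallest adjusted p = 0.0555, median −0.08). At an unadjusted p under 0.05, 0 were higher and 7 lower, against 6.01% and 5.42% of all genes. In all 4 populations 7 were lower and 0 higher, against 12% and 17.1% of all genes. Their mean log2 level was 6.17 to 6.33 in GSI arrays and 6.31 to 6.44 in DMSO arrays. *Eng*, the endoglin gene, had differences of −0.49, −0.76, −0.16 and −0.45 in WT MDPs, WT CDPs, IkL/L MDPs and IkL/L CDPs (adjusted p = 0.204), and *Tgfbr3* averaged −0.33. Of 22 TGFβ target genes only *Axl* passed. Oxidative phosphorylation genes averaged higher for 28 of 29, against 57.3% of all genes, by little (median 0.09, 0 called in limma). Unadjusted, 9 were higher and 0 lower, and *Sdhc* was highest at 0.27 (adjusted p = 0.104). Cell division genes gave 0 calls in limma, with medians of 0.01 for 29 mitosis genes (1 higher and 0 lower unadjusted) and 0.08 for 36 DNA replication genes (2 higher and 0 lower unadjusted). *Vegfa*, the vascular growth factor gene, averaged −0.53 (adjusted p = 0.0751) and was lower in all 4 populations.

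**Figure D4:**
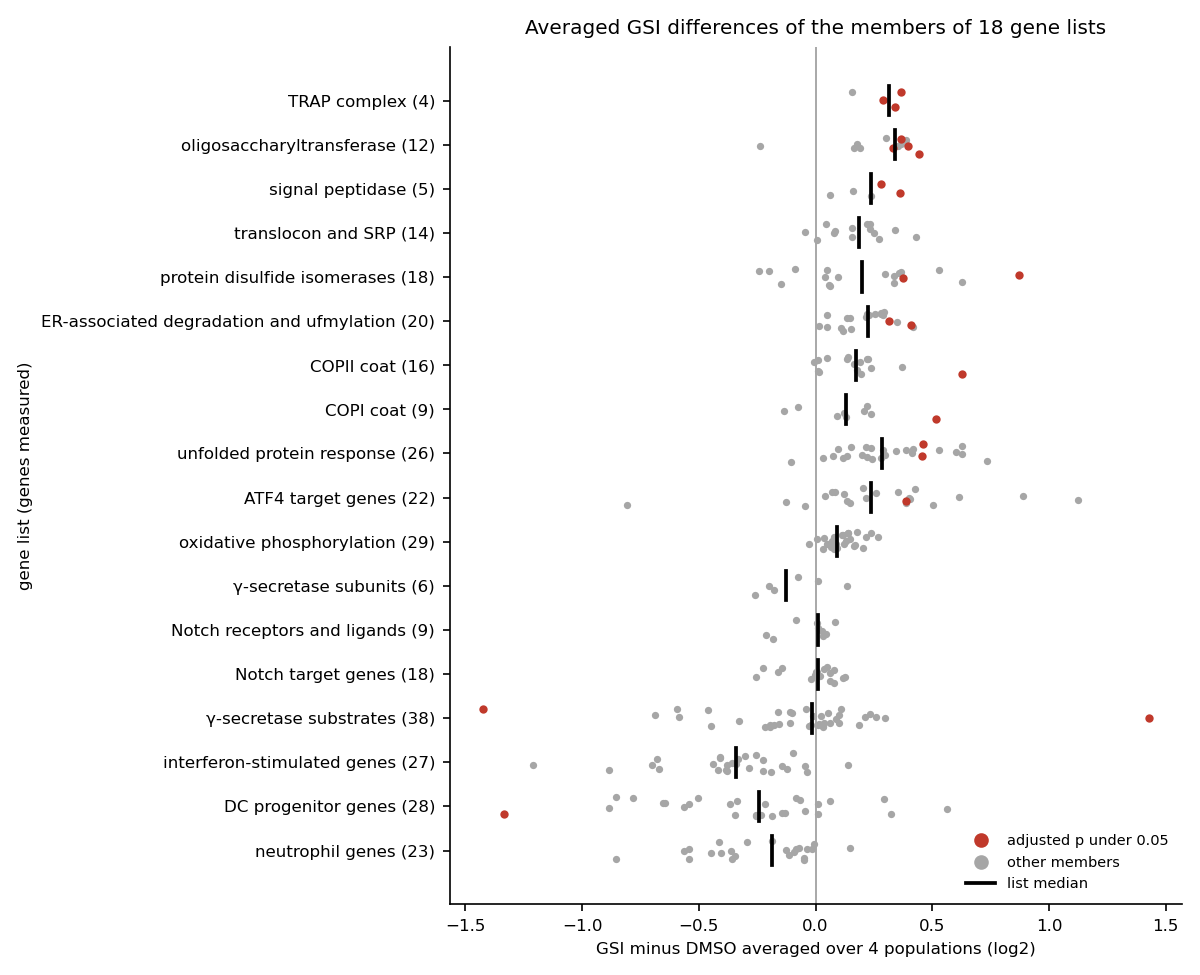
GSI minus DMSO difference averaged over the 4 populations (log2, x axis) for each measured gene of 18 lists (y axis), with called genes in red and a black bar at each median. Medians were 0.34 for oligosaccharyltransferase genes, 0.28 for the unfolded protein response and −0.34 for interferon-stimulated genes.

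No gene of the inhibited enzyme or of the Notch groups was called. Of the 6 measured γ-secretase subunit genes 0 passed in limma (0 higher and 1 lower at an unadjusted p under 0.05), and the averaged differences were −0.26 for *Aph1b*, −0.20 for *Aph1c*, −0.18 for *Psen2*, −0.08 for the nicastrin gene *Ncstn*, 0.01 for *Psenen* and 0.13 for *Aph1a*. None of 9 Notch receptor and ligand genes and none of 18 Notch target genes passed, with medians of 0.01 in both. In each group 0 were higher and 1 lower unadjusted, against 6.01% and 5.42% of all genes. The median log2 signal was 4.32 for the receptors and ligands and 4.56 for the targets, against array medians of 4.52 to 4.65. Many of these genes thus had a low signal, where a fall would be hard to see. *Hes1*, the canonical Notch target, had differences of −0.04, −0.04, 0.15 and −0.08 in WT MDPs, WT CDPs, IkL/L MDPs and IkL/L CDPs. *Notch1* averaged −0.08 (SE 0.21, adjusted p = 0.907), *Notch2* −0.21, *Notch3* 0.00 and *Notch4* 0.01. The Notch-responsive genes *Ptcra* (0.08) and *Uaca* (0.12), the gene of the Notch partner *Rbpj* (−0.11) and *Ikzf1* (−0.07) did not pass either. *Deptor* (−0.25, adjusted p = 0.135) was the Notch target with the smallest adjusted p. Among 38 genes for γ-secretase substrates, *Cdh1* rose and *Axl* fell, and the median was −0.01.

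The 61 called genes were set side by side in the 4 populations. The median size of the difference was 0.41 in WT MDPs, 0.52 in WT CDPs, 0.37 in IkL/L MDPs and 0.56 in IkL/L CDPs. It was largest in IkL/L CDPs for 24 genes, in WT CDPs for 19, in WT MDPs for 15 and in IkL/L MDPs for 3, and smallest in IkL/L MDPs for 29. By limma the 4 effects differed for 0 of 19938 genes (279 at an unadjusted p under 0.05). For CDPs against MDPs 0 genes passed (421 unadjusted), and for IkL/L against WT 0 passed (319 unadjusted). Each of these unadjusted counts was a smaller share of the 19938 genes than 0.05. Among the 61 called genes, 12 had an unadjusted p under 0.05 in the limma test of the 4 effects (smallest adjusted p = 0.749). The genes with the largest variation among the 4 effects were *Cyp1b1*, *Pdcd1lg2*, *F11r*, *Mrc1* and *Cd209e*. *Pdcd1lg2*, which encodes a ligand of PD-1, had a difference of 1.78 in IkL/L CDPs and of 0.13 to 0.20 elsewhere, and the lectin gene *Cd209e* had 2.79 in IkL/L CDPs, 1.06 in WT CDPs, 0.08 in IkL/L MDPs and 0.01 in WT MDPs. Taken alone, WT MDPs and IkL/L MDPs gave 0 called genes in limma (1350 and 522 of 19938 unadjusted). WT CDPs gave 2 (0.01% of all genes), *Hfe* (1.15) and *Mrc1* (3.09), both higher with an adjusted p of 0.0445. With 1 array left out, WT MDPs gave 0 to 59 calls, WT CDPs 0 to 6 and IkL/L CDPs 0 to 18.

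IkL/L CDPs gave 1 called gene (0.00502% of all genes). It was *Cyp1b1*, a cytochrome P450 gene known to be induced through the aryl hydrocarbon receptor, which was 1.10 higher with GSI (adjusted p = 0.00640). Its difference was 0.08 in WT MDPs, 0.05 in WT CDPs and 0.32 in IkL/L MDPs, and its signal in all 8 DMSO arrays, 3.45 to 3.61, was below the array medians. The averaged call of *Cyp1b1* (0.39, adjusted p = 0.0199) thus combined 1 large and 3 smaller differences, and the difference between genotypes (0.65) did not pass (adjusted p = 0.819). Called secretory genes ranged from nearly equal to less equal differences. *Tmem214* had differences of 0.57, 0.45, 0.49 and 0.53, and *Spcs3* of 0.24, 0.36, 0.24 and 0.28, in WT MDPs, WT CDPs, IkL/L MDPs and IkL/L CDPs. In the same order, *Stt3b* had 0.30, 0.52, 0.21 and 0.43, and *Pdia5* 0.85, 0.82, 0.60 and 1.22.

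**Figure D5:**
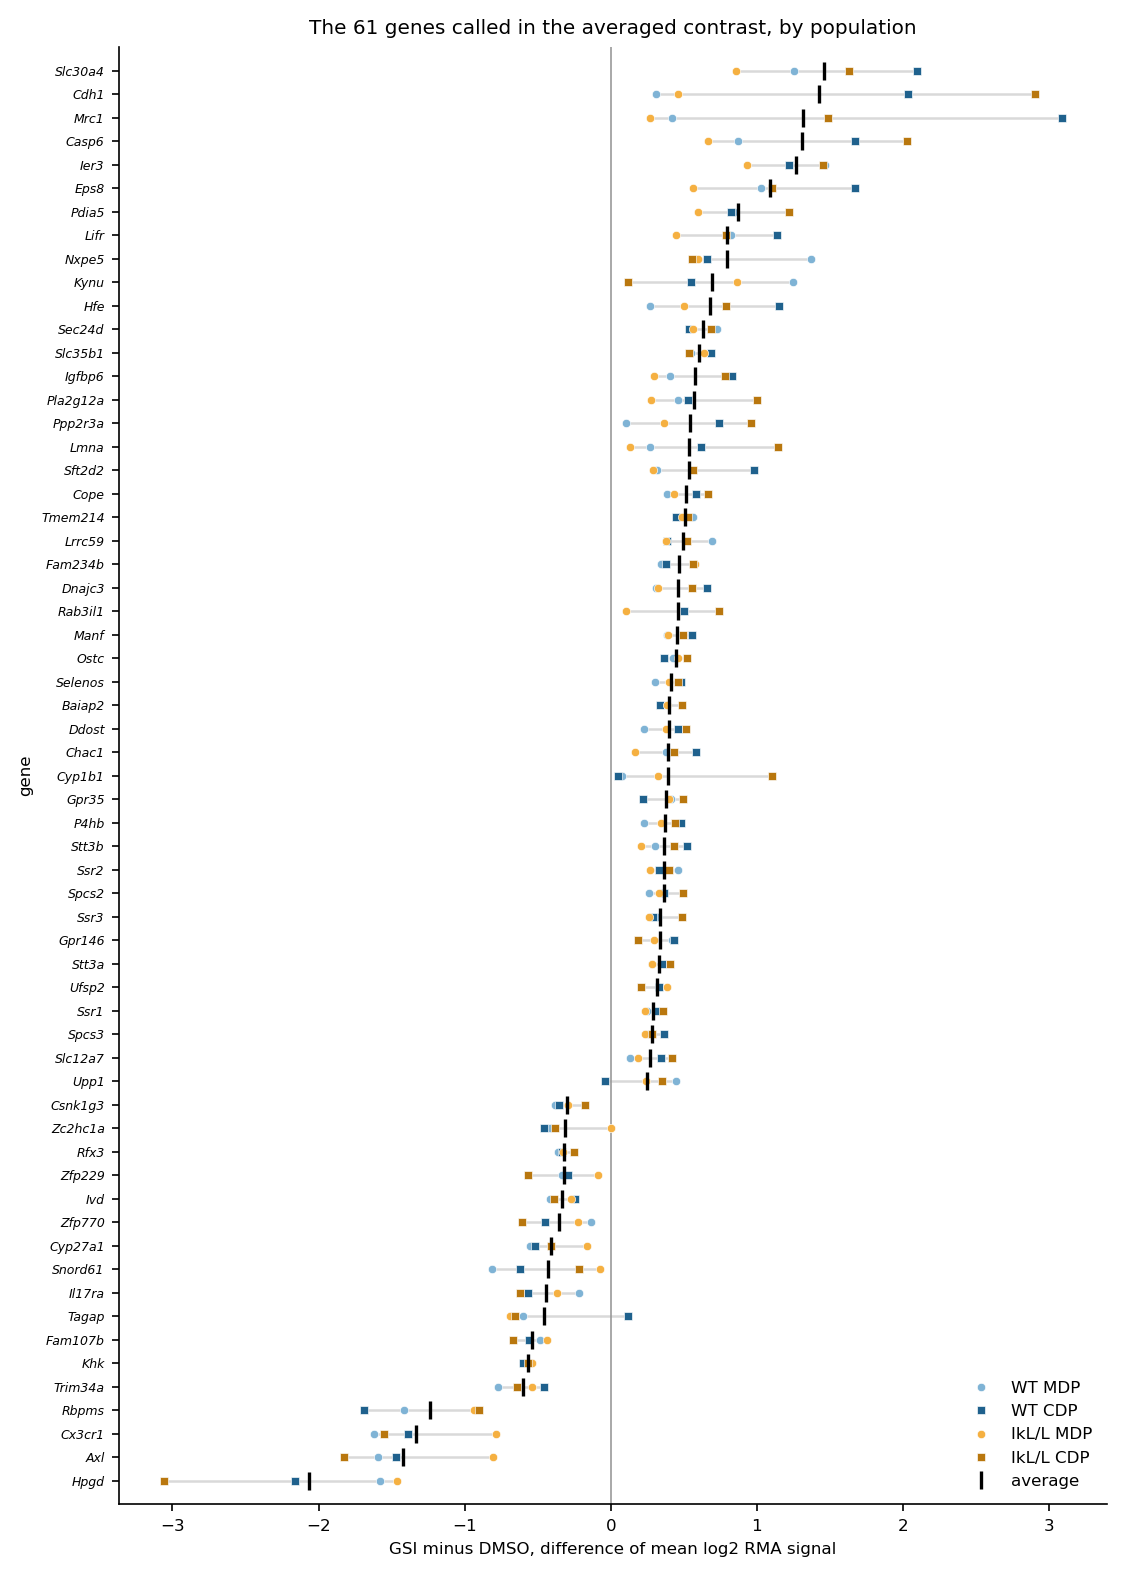
GSI minus DMSO difference of mean log2 signal (x axis) for the 61 called genes (y axis), with a point for each of the 4 populations and a black bar for their average. The median size was 0.56 in IkL/L CDPs and 0.37 in IkL/L MDPs.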

How the data were processed

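RNA (0.69 to 20 ng) from the sorted progenitors was amplified (NuGEN Ovation Pico) and hybridized to Affymetrix Mouse Gene ST 1.0 arrays, 16 in all. The authors ran RMA (background correction, normalization across arrays and summary per probe set) in Expression Console 1.4.1, and the deposited log2 values were used as given. For the probe annotation, a genome build was not given in the sources used here. Values ran from 2.55 to 13.46, and the table holds no detection call, so signal over background is unknown. Precision is limited by the number of arrays.

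Of 28188 probe sets, 21789 carried 1 gene symbol in the platform annotation, 1621 several and 4778 none. Genes were the 19938 symbols of the first kind, represented where needed by the probe set of highest average signal. The 8 group means were estimated jointly with limma 3.58.1 in R 4.3.3 (8 residual and 2.35 prior degrees of freedom), and the 4 GSI minus DMSO differences were averaged with equal weight, which equals the mean over the 8 number-matched differences. Tests were moderated and two-sided, p values were adjusted by Benjamini-Hochberg over all genes, and "called", "rose" and "fell" mean an adjusted p under 0.05. The scripts were tested on simulated data. The labels do not say whether arrays came from separate mice, while the study's legend speaks of 2 mice for each condition. The p values measure the spread between these arrays. Replicate numbers were not used to pair arrays in the test.

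Named genes were the 15 largest rises and the 15 largest falls among called genes with the same direction in all 4 populations, plus up to 4 called members of each gene list (or the largest differences where none was called), the γ-secretase, Notch, Ikaros and TGFβ genes of interest, the 5 genes of largest variation among the populations, and those just inside and outside the direction rule. Other genes were named after their values had been seen. Members and lists were chosen with earlier results of these data known, and the ER complexes, vesicle coats and Axl family were gathered after the values had been seen, so no list was tested. Alternatives were other blocks, filters on low signal, normalizations, variance models, a minimum fold, and leaving out an array or a population. Promoter sequences and positions are from RefSeq on GRCm38.p6.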

Additional observations from a re-analysis of the deposited data

Results flagged for a closer look

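The measured GSI differences of *Psenen*, a γ-secretase subunit gene, were negative in CDPs and positive in MDPs. The differences were −0.22 and −0.07 in WT and IkL/L CDPs and 0.17 and 0.16 in WT and IkL/L MDPs, and the CDP effect minus the MDP effect was −0.31 (SE 0.09, limma unadjusted p = 0.00619), which did not pass the adjusted threshold. *F11r*, the gene of a junctional adhesion molecule, had differences of −0.81 and −0.79 in WT and IkL/L CDPs and 0.40 and 0.15 in WT and IkL/L MDPs. Its CDP effect minus MDP effect was −1.08 (SE 0.16, limma unadjusted p = 5.4e-05), which did not pass either. The comparisons above leave out 6399 probe sets that carry no symbol or several. In a fit over all 28188 probe sets, 49 passed the averaged test. Of these, 6 were among the 6399, 3 higher and 3 lower with GSI. That fit is separate from the fit over genes, so the 6 do not add to the calls above.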

How the results depend on the processing

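All 61 averaged differences kept their sign in each alternative that gave a value for them (54 had one at a mean log2 signal of at least 5, and 44 at 6). Counts of calls moved with the setting. The labels do not pair the numbered arrays, and same-numbered deviations correlated at 0.48, 0.59, −0.02 and 0.66 in WT MDPs, WT CDPs, IkL/L MDPs and IkL/L CDPs. With a replicate block over the 8 matched pairs 370 genes rose and 470 fell (235 and 302 without IkL/L MDPs, a setting added after the data were seen), and 55 of the 61 calls were kept. With the replicate number as a term there were 91 and 85, with 5 in WT CDPs and 6 in IkL/L CDPs, and with an additive model 79 and 73. Keeping only genes with a mean log2 signal of at least 5 gave 3 calls in IkL/L CDPs and 1703 genes higher in all populations. A minimum of 6 gave 0 calls in IkL/L CDPs, with 1363 higher and 1427 lower in all populations. Quantile normalization gave 1 call in WT CDPs. Median centring gave 5 risen and 5 fallen, with 0 in WT CDPs, and 2501 higher and 3021 lower in all populations. A variance trend gave 1 call in WT CDPs and 9 in IkL/L CDPs, and with robust fitting 1 and 12. Against a 1.2-fold minimum, 0 rose, 0 fell and 0 passed in WT CDPs. Without WT MDPs, WT CDPs, IkL/L MDPs or IkL/L CDPs, in that order, 1, 0, 4 and 0 rose and 0, 0, 2 and 1 fell. With 1 array left out, 0 to 54 rose and 0 to 45 fell. The calls numbered 0 to 59 in WT MDPs, 0 to 6 in WT CDPs, 0 in IkL/L MDPs and 0 to 18 in IkL/L CDPs. The 4 effects differed for 0 to 4 genes, CDP and MDP effects for 0 to 4, and IkL/L and WT effects for 0 to 2. Genes higher in all populations numbered 2612 to 3596 and lower 2003 to 2440. The causes were not tested. The median of the unfolded protein response was 0.24 to 0.32 and that of interferon-stimulated genes −0.43 to −0.25 over the arrays left out, while the medians of DC progenitor and neutrophil genes were −0.27 to −0.14 and −0.35 to −0.10.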
